A study of Mus musculus with 11 samples.

Results

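The aryl hydrocarbon receptor pathway was followed through 7 genes: the receptor Ahr, its dimer partners Arnt and Arnt2, the repressor Ahrr, and the target genes Tiparp, Cyp1a1 and Cyp1b1. All 16 probe sets that the array's annotation gives to these symbols were taken, of 45037 in the table without controls, and 7 genes of the 17097 that could be tested. The genes were selected on their role in the pathway and on measured values, the differences of Ahr and Arnt2 between the gland groups on these same arrays, so all differences of members between groups are given as descriptions with no test. RNA came from T cells of NOD mice, all male and 16 weeks old. In males of this strain T cells infiltrate the lacrimal gland (LG, the source of tears), a disease used to study Sjögren's syndrome. LG_eTreg and LG_eTconv are effector regulatory and effector conventional CD4 T cells of the gland, for which the design text gives 1 shared gate, high for PD-1 and ICOS and low for CD73 and CD200. LG_naive are CD4 T cells of the gland without surface PD-1 and ICOS. These groups have 3 arrays each. Spleen CD4 (Spl_CD4) and spleen CD8 (Spl_CD8) T cells, not divided further and taken from the same animals, have 1 array each. Whether the replicates are different animals or pools is not given, so p-values measure the spread between arrays, which may be technical.

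The receptor is a transcription factor of the basic helix-loop-helix PAS family that waits in the cytoplasm in a complex with chaperones. On binding a ligand, such as a dioxin, a plant indole or a tryptophan metabolite, it enters the nucleus, pairs with ARNT and binds DNA at sites with the core GCGTG. Cyp1a1 and Cyp1b1, which encode ligand-degrading cytochromes, Tiparp, which encodes a mono-ADP-ribosyltransferase that inhibits the receptor, and Ahrr, which encodes a repressor that competes for ARNT, are its classical targets. ARNT also pairs with the hypoxia factors HIF-1α and HIF-2α. ARNT2 is a close relative of ARNT best known from neurons, where it pairs with NPAS4 and SIM1. In T cells the receptor is known from T helper 17 cells, interleukin 22 production and regulatory cells.

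The starts of the target genes are shown because the results below turn on which of them were detected, and that of Arnt2 because its signal differed most between groups. RefSeq gave a window for 6 of the 7 genes (build GRCm38.p6, C57BL/6J), from 250 bases before to 50 bases after a transcript start, printed 5′ to 3′ in the direction of the gene. Capitals mark the core GCGTG, or CACGC where it lies on the other strand.
Tiparp, chr3:65528197-65528496, plus strand: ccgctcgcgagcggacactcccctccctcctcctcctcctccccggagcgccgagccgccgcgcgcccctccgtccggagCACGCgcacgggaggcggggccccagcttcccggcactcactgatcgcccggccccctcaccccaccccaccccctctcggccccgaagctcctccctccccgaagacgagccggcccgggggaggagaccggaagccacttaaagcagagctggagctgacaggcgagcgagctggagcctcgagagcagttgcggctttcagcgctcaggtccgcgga
Ahrr, chr13:74292282-74292581, minus strand: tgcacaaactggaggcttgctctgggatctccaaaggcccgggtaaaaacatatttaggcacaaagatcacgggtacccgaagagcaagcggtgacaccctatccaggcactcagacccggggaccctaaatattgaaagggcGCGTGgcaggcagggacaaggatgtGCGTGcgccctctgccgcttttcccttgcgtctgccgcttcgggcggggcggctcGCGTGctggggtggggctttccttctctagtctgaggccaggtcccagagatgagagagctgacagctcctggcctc
Cyp1b1, chr17:79715012-79715311, minus strand: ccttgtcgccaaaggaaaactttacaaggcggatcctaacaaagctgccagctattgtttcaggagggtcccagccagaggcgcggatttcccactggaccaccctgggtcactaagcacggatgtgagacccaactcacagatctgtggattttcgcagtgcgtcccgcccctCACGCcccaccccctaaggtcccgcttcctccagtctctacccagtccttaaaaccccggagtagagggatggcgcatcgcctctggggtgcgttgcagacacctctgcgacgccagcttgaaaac
Cyp1a1, chr9:57697363-57697662, plus strand: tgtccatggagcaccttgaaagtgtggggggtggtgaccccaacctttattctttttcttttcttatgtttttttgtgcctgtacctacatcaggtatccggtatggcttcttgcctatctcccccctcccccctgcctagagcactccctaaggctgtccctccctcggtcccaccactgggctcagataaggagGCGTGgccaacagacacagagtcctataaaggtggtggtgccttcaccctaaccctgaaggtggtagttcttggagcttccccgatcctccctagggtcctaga
Arnt2, chr7:84409989-84410288, minus strand: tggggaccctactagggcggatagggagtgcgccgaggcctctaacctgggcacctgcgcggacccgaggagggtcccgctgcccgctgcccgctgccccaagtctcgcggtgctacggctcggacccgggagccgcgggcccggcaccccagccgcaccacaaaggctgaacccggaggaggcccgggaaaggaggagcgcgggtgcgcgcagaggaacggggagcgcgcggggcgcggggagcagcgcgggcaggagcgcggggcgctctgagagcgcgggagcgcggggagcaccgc
The core stood in 5 of the 6 windows, searched on both strands: 3 times in Ahrr and once each in Tiparp, Cyp1b1, Cyp1a1 and Arnt. Of all 32851 RefSeq windows of this length, 32.4% held it. The longer TNGCGTG, which contains the core, stood in the Ahrr window alone of the 6 and in 5.07% of all windows. ACGTG, one of the cores bound by the hypoxia factors, which shares its last 4 letters with GCGTG, was in none of the 6 and in 19.6% of all. A match describes the letters and does not show that a site is used, and the best-known elements of Cyp1a1 lie further upstream than this window.

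All levels are log2 signals, and a level of 1 gene is not set against that of another. Each array's brightest nonspecific control probe set was taken as its background limit, which ran from 0.945 to 1.70. Foxp3, which defines regulatory T cells, lay between 8.13 and 8.21 in LG_eTreg, against 3.61 to 4.85 in LG_eTconv and 2.86 to 4.95 in LG_naive, with 5.77 in Spl_CD4. Cd4 was between 8.35 and 9.02 on every array but Spl_CD8, where it was 2.47, and the 5 measured T cell markers were above the limit on all arrays. LG_eTreg 3 and LG_naive 1 had 18S ribosomal RNA signals of 6.69 and 6.63, where the remaining arrays had 4.34 to 5.68, and the gap between 3′ and 5′ actin probe sets was 3.35 on LG_eTconv 1, against 1.53 to 2.86. Differences of Ahr, Arnt2, Arnt and Tiparp are also given without some or all of these arrays.

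Ahr was high in both effector subsets of the gland and low in LG_naive. Its brighter probe set, 1422631_PM_at, read 7.68, 8.02 and 7.51 in LG_eTreg, 7.54, 7.17 and 7.05 in LG_eTconv, and 2.99, 4.66 and 4.55 in LG_naive. All 6 effector arrays lay above all 3 LG_naive arrays, and the 2 effector subsets overlapped. In group means this was 7.74 ± 0.26 (SD, n = 3) in LG_eTreg and 7.25 ± 0.25 in LG_eTconv, against 4.07 ± 0.93 in LG_naive. The log2 difference from LG_naive was 3.67 (SE 0.41, 12.7-fold) in LG_eTreg and 3.19 (SE 0.41, 9.11-fold) in LG_eTconv, while LG_eTreg and LG_eTconv differed by 0.48 (SE 0.41). In these bulk samples, more cells with the transcript and more transcript per cell cannot be told apart. LG_naive 1, with its high 18S signal, gave the lowest Ahr value of all arrays. Without it the differences were 3.13 in LG_eTreg and 2.65 in LG_eTconv, and the part of RNA quality in the result was not tested.

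The other probe set of Ahr, 1450695_PM_at, stood near background. It was above the limit on 2 of 3 arrays in LG_eTreg, on 2 of 3 in LG_eTconv and on 0 of 3 in LG_naive, and its highest value was 2.88, on LG_eTreg 3. With the mean of both probe sets in place of the brighter one, the difference from LG_naive was 2.30 in LG_eTreg and 1.94 in LG_eTconv.

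Spleen cells lay between the gland subsets for Ahr. Spl_CD4 read 5.51 and Spl_CD8 4.98, below every effector array and above every LG_naive array, so that the order of levels was LG_eTreg, LG_eTconv, Spl_CD4, Spl_CD8 and LG_naive. The neighbours LG_eTreg and LG_eTconv overlapped, and the 2 spleen arrays have no replicates to judge their gap by. The log2 difference from Spl_CD4 was 2.23 in LG_eTreg, 1.75 in LG_eTconv and −1.44 in LG_naive, each with all 3 gland arrays on 1 side.

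Arnt2 was detected on every LG_eTreg array and on no LG_naive array. Its single probe set, 1434028_PM_at, read 6.52, 6.13 and 5.43 in LG_eTreg, 2.17, 1.26 and 0.89 in LG_eTconv, and 0.54, 0.36 and 0.22 in LG_naive. The 3 groups did not overlap. All 3 LG_naive arrays were below their limits, and of LG_eTconv 2 of 3 were above, one of them narrowly (1.26, with a limit of 1.24). Means were 6.03 ± 0.55 in LG_eTreg and 1.44 ± 0.66 in LG_eTconv, against 0.37 ± 0.16 in LG_naive (SD, n = 3 each). LG_eTreg was thus at least 24.0-fold above LG_naive, computed against the limits of the LG_naive arrays, and higher than LG_eTconv by 4.59 (SE 0.36). No fold is given for LG_eTconv against LG_naive, because the LG_eTconv mean did not exceed the mean limit of the LG_naive arrays.

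In the spleen, Arnt2 read 3.24 in total CD4 cells and 0.43, below the limit, in total CD8 cells. The order was therefore LG_eTreg, Spl_CD4 and LG_eTconv, with Spl_CD8 and LG_naive both below background and without order. Against Spl_CD4, the difference was 2.78 in LG_eTreg, −1.80 in LG_eTconv and −2.87 in LG_naive, and the last of these rests on values below the limit. Without LG_naive 1, LG_eTconv 1 and LG_eTreg 3 together, a choice made after seeing the data, LG_eTreg exceeded LG_eTconv in Arnt2 by 5.25.

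**Figure D1:**
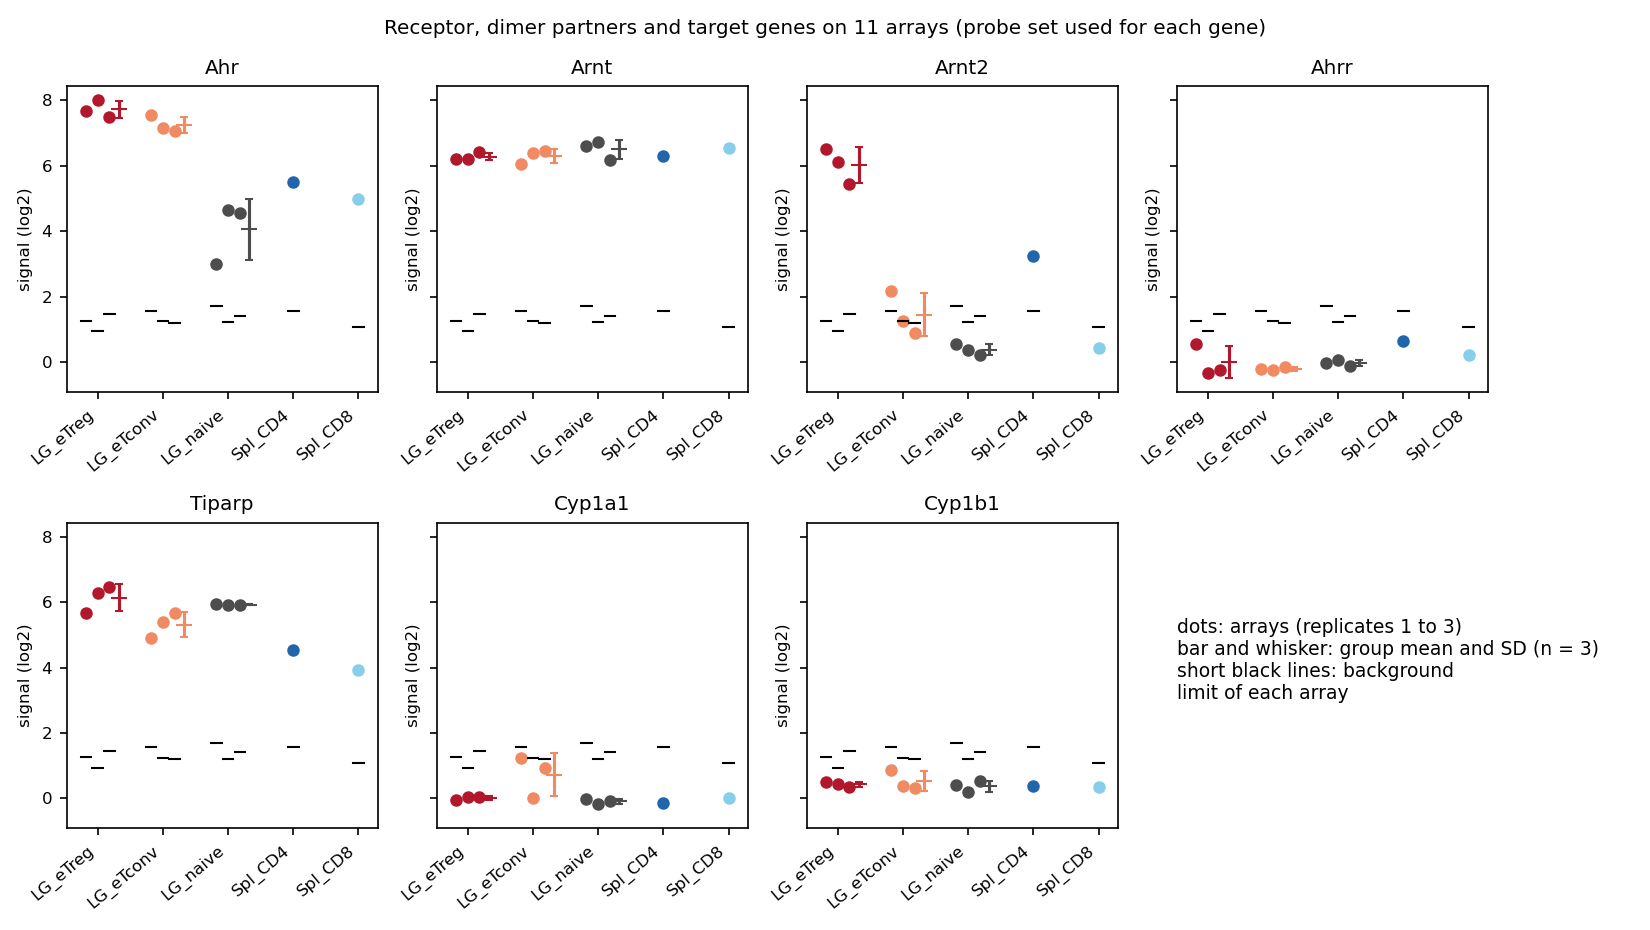
Signal (log2, vertical axis) of the 7 genes on each of the 11 arrays, by group, with 1 probe set per gene. Dots are arrays, bars with whiskers are group means and SD (n = 3), and short black lines are the arrays' background limits: Ahr is high in both effector subsets, Arnt2 in LG_eTreg (5.43 to 6.52), and Ahrr, Cyp1a1 and Cyp1b1 stay below the limits.

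Arnt, the usual partner, was present on all arrays with little difference between groups. Its brightest probe set, 1419996_PM_s_at, averaged 6.28 ± 0.11 in LG_eTreg and 6.31 ± 0.21 in LG_eTconv, against 6.50 ± 0.29 in LG_naive (SD, n = 3 each). The groups overlapped, and the difference from LG_naive was −0.22 (SE 0.17) in LG_eTreg and −0.19 (SE 0.17) in LG_eTconv. Without LG_eTreg 3, LG_eTconv 1 and LG_naive 1 these were −0.23 and −0.02. The next probe sets, 1449696_PM_at and 1437042_PM_at, also overlapped between all 3 gland groups. Spl_CD4 at 6.29 and Spl_CD8 at 6.55 fell within the gland's range.

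A dimmer Arnt probe set, 1421721_PM_a_at, behaved differently. It read 2.40, 1.96 and 2.68 in LG_eTreg, 2.59, 2.09 and 2.56 in LG_eTconv, and 3.09, 3.88 and 3.67 in LG_naive, above the limit on all of them. Both effector subsets lay wholly below LG_naive, in contrast to the 3 brighter probe sets of the same gene. Spl_CD4 read 3.44 and Spl_CD8 2.23. By the maker's naming, the ending a_at marks probe sets that match alternative transcripts of 1 gene. The fifth Arnt probe set was below the limit on all 11 arrays.

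Tiparp was the one target gene with a probe set above the limit on all 11 arrays. Its brightest probe set, 1426721_PM_s_at, read 5.67, 6.30 and 6.47 in LG_eTreg, 4.91, 5.39 and 5.66 in LG_eTconv, and 5.95, 5.92 and 5.91 in LG_naive. LG_eTreg overlapped with LG_naive, LG_eTconv lay below LG_naive, and LG_eTreg lay above LG_eTconv by the smallest of margins (5.67 against 5.66). Differences were 0.22 (SE 0.24) for LG_eTreg and −0.61 (SE 0.24) for LG_eTconv, both against LG_naive, and 0.83 between LG_eTreg and LG_eTconv. LG_eTconv 1 held the lowest and LG_eTreg 3 the highest of these gland values. Without LG_eTreg 3 the difference from LG_naive was 0.06 in LG_eTreg, without LG_eTconv 1 it was −0.40 in LG_eTconv, and without these arrays and LG_naive 1 LG_eTreg and LG_eTconv differed by 0.46. Thus Ahr and Tiparp had different orders over the gland groups: the LG_naive arrays, lowest in Ahr, were not lowest in Tiparp. The LG_naive arrays also had higher sums of monocyte and dendritic cell markers than the effector arrays, given below. The part of such cells in these orders was not tested.

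The other 2 Tiparp probe sets were dimmer. On 1452160_PM_at, LG_eTreg averaged 3.83 ± 0.48 and LG_eTconv 3.15 ± 0.46, against 3.75 ± 0.15 in LG_naive. On 1452161_PM_at all 3 groups overlapped. Both spleen arrays were below every gland array on the brightest probe set, with 4.53 in Spl_CD4 and 3.93 in Spl_CD8, so Tiparp was higher than in Spl_CD4 by 1.62 in LG_eTreg, 0.79 in LG_eTconv and 1.40 in LG_naive. On 1452160_PM_at Spl_CD4 and Spl_CD8 read 1.61 and 2.38, also below every gland array. On 1452161_PM_at Spl_CD4 read 2.35, above LG_eTconv 1 (1.66) and LG_naive 1 (1.82), and Spl_CD8 read 1.16, below every gland array.

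**Figure D2:**
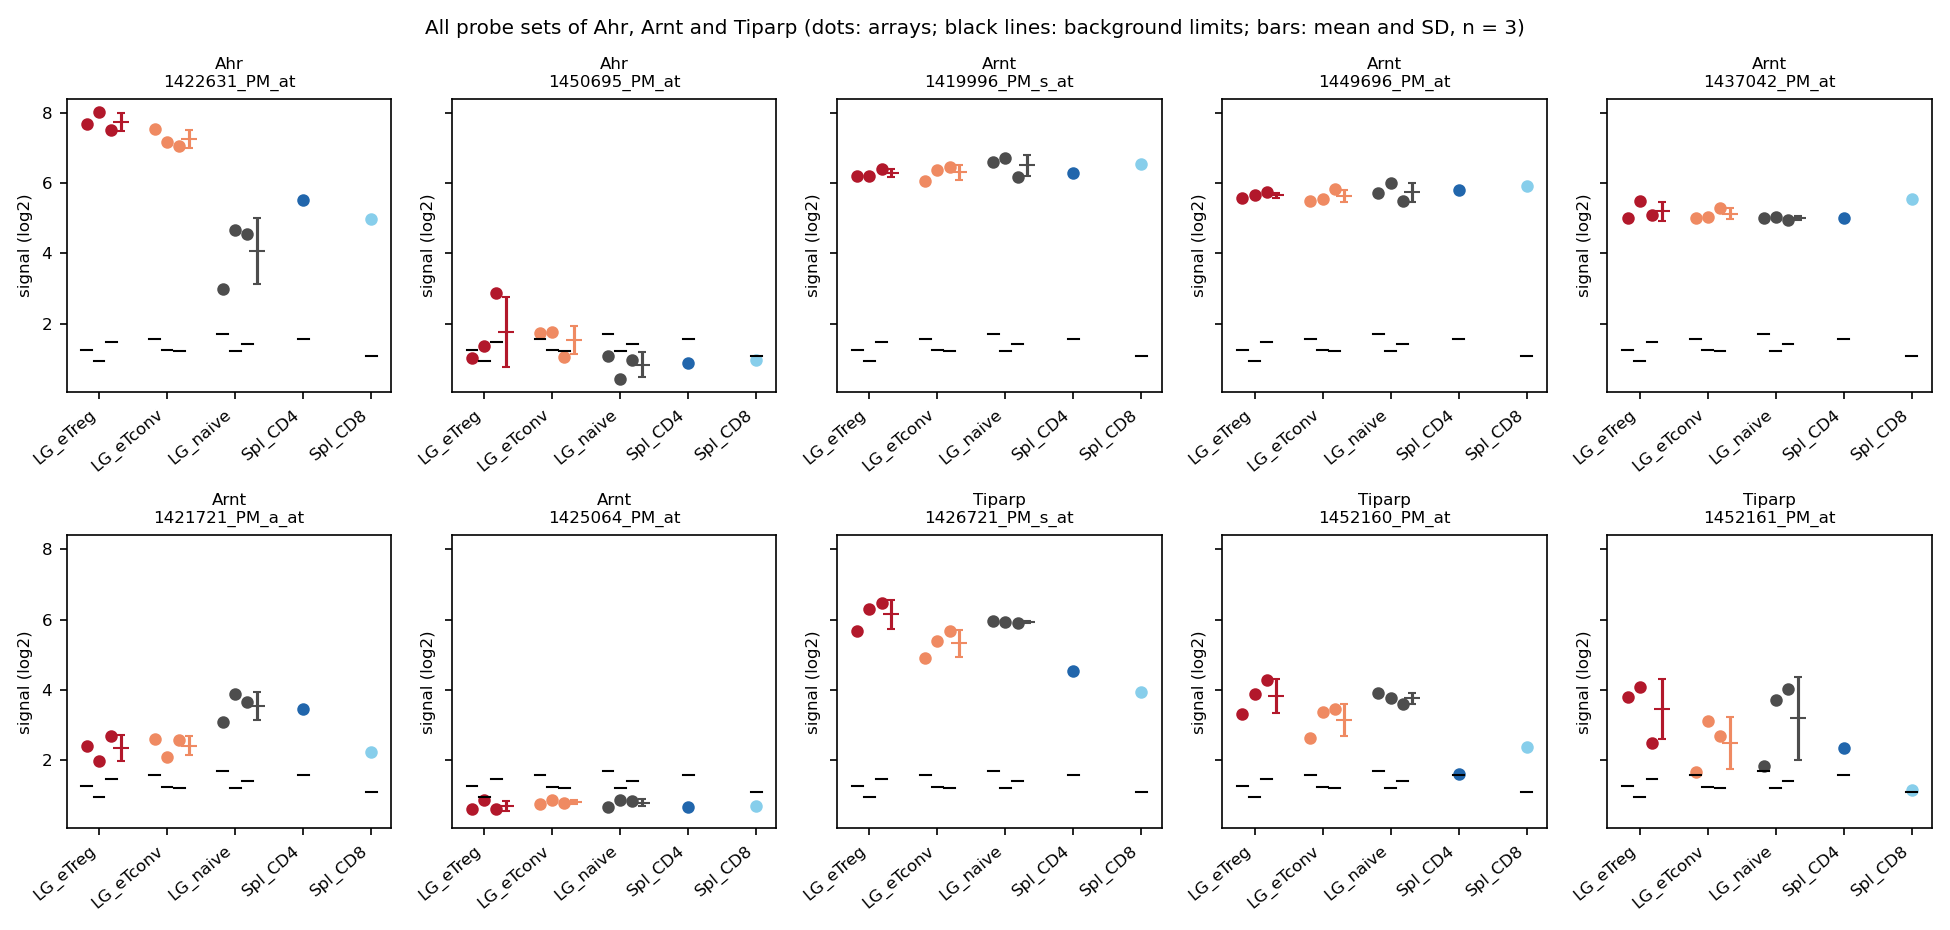
Signal (log2, vertical axis) of every probe set of Ahr, Arnt and Tiparp by group, with dots for arrays, bars for mean and SD (n = 3) and black lines for background limits. The bright Ahr probe set separates effector from LG_naive arrays and the dim one stays near the limits, while 1421721_PM_a_at is the one Arnt probe set on which both effector subsets lie below LG_naive.

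Ahrr, Cyp1a1 and Cyp1b1 were not detected on the probe sets used for them. Ahrr ran from −0.33 to 0.64 over the 11 arrays. Cyp1a1 reached 1.25 on LG_eTconv 1 and 0.94 on LG_eTconv 3, both below the limits of these arrays (1.57 and 1.20), against 0.00 on LG_eTconv 2 and −0.17 to 0.06 on the other arrays of the gland and −0.15 and 0.00 in the spleen. Its differences between groups have no size that could be given, since all values were below background. Of the 3 Cyp1b1 probe sets 1 passed the limit once, 1416612_PM_at with 1.68 on LG_eTreg 3, the array with the highest 18S signal. Values below the limit do not show that a transcript was absent.

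Of the 7 members, 2 were past the limma threshold (adjusted p under 0.05 over all genes) in LG_eTreg against LG_naive, Ahr and Arnt2, both higher, where 11.7% of all genes were called (6.2% higher and 5.47% lower). In LG_eTconv against LG_naive 1 of 7 was past it, Ahr, which was higher, where 13.5% of all genes were called (6.45% higher and 7.02% lower). Between LG_eTreg and LG_eTconv 1 of 7 was past it, Arnt2, which was higher, where 5.7% of all genes were called (2.94% higher and 2.76% lower). Arrays did not overlap between LG_eTreg and LG_naive for 2 of 7 members, Ahr and Arnt2, both higher, as for 27.1% of all genes (13.3% higher and 13.9% lower). Between LG_eTconv and LG_naive they did not overlap for 5 of 7, with Ahr, Arnt2 and Cyp1a1 higher and Ahrr and Tiparp lower, as for 31.1% of all genes (13.8% higher and 17.2% lower), and Cyp1a1 and Ahrr were below background. Between LG_eTreg and LG_eTconv they did not overlap for 2 of 7, Arnt2 and Tiparp, both higher, as for 21.5% of all genes (11.8% higher and 9.63% lower). Nothing is read from these counts, because the members were chosen with these differences known. The counts past the threshold moved with single arrays: without LG_eTconv 2, Cyp1a1, below background throughout, was also past the threshold in both comparisons of LG_eTconv, and without LG_eTreg 1, Tiparp was past it between LG_eTreg and LG_eTconv, which made 2 of 7 each time. 

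Against the spleen, a difference from Spl_CD4 of at least 2-fold with all 3 gland arrays on 1 side was counted. LG_eTreg had 3 of 7 members past it, Ahr, Arnt2 and Tiparp, all higher, where 12.4% of all genes were past it (6.44% higher and 5.98% lower). LG_eTconv had 2 of 7, with Ahr higher and Arnt2 lower, where 13.2% of all genes were past it (6.56% higher and 6.62% lower). LG_naive had 3 of 7, with Tiparp higher and Ahr and Arnt2 lower, where 9.24% of all genes were past it (4.67% higher and 4.57% lower). With the mean of all probe sets of a gene the count in LG_naive was 2 of 7. Spl_CD8 and Spl_CD4 differed by at least 2-fold in 1 of 7 members, Arnt2, and in 8.25% of all genes. With 1 spleen array of a kind there is no test.

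Other genes of the pathway were tested in the same fit, as 6 lists of 49 genes, of which 42 were measured under their symbols and 34 passed the limit on at least 1 gland array. Against LG_naive, LG_eTreg had 10 of 42 higher and 5 lower (35.7% called, against 11.7% of all genes), with a median log2 difference of −0.01, against −0.02 over all genes. LG_eTconv had 8 higher and 6 lower against LG_naive (33.3%, against 13.5%), with a median of −0.01, against −0.03. Between LG_eTreg and LG_eTconv 3 were higher and 2 lower (11.9%, against 5.7%). The comparisons of LG_eTreg and LG_eTconv with LG_naive share the LG_naive arrays.

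The cytoplasmic complex showed no call in any comparison. Hsp90aa1, a chaperone that holds the receptor, differed from LG_naive by −0.28 in LG_eTreg (limma adjusted p = 0.67) and −0.34 in LG_eTconv (0.565), and Ptges3, the co-chaperone p23, by 0.10 and 0.05. These genes and Src made up the 3 of 5 measured, and Src passed the limit on 2 of 9 gland arrays. Among 6 measured coactivators and turnover genes, Cul4b, a ubiquitin ligase scaffold known to act with the receptor, was higher in LG_eTconv by 0.54 (limma adjusted p = 0.0387). That call ended in 8 of 9 fits with 1 array left out, all but the one without LG_naive 3, with adjusted p up to 0.121, and the mean of its probe sets differed by 0.05.

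Relatives that share the partner ARNT moved in opposite directions. Hif1a, the oxygen-sensing subunit HIF-1α, averaged 9.10 ± 0.12 in LG_eTreg and 9.29 ± 0.08 in LG_eTconv, against 8.26 ± 0.17 in LG_naive (SD, n = 3 each). It was higher than in LG_naive by 0.85 in LG_eTreg (SE 0.12, limma adjusted p = 0.00227) and by 1.03 in LG_eTconv (adjusted p = 0.000633). Epas1, the subunit HIF-2α, read 2.45, 3.47 and 1.38 in LG_eTreg and 2.42, 2.32 and 1.43 in LG_eTconv, against 6.16, 6.07 and 5.75 in LG_naive. It was lower by 3.56 and 3.94 on the log2 scale (limma adjusted p = 0.00182 and 0.000885). All effector arrays lay below all LG_naive arrays. On Spl_CD4 and Spl_CD8 Epas1 read 5.33 and 4.17. With the mean of all probe sets of a gene, Epas1 was lower by 1.77 and 2.05 on the log2 scale in LG_eTreg and LG_eTconv, and Hif1a higher by 1.36 and 2.05.

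Of the 12 relatives measured, 3 were higher and 1 lower in LG_eTreg than in LG_naive, where 6.2% of all genes were higher and 5.47% lower. In LG_eTconv 3 were higher and 2 lower than in LG_naive, where 6.45% of all genes were higher and 7.02% lower. Npas4, the activity-dependent factor that pairs with ARNT2 in neurons, read 1.97, 1.88 and 2.47 in LG_eTreg and 1.66, 2.02 and 1.48 in LG_eTconv, against 0.86, 0.46 and 1.01 in LG_naive, where it was below the limit on all 3 arrays. It was at least 1.59-fold higher in LG_eTreg (limma adjusted p = 0.00496, or 0.266 after raising all values to the highest background limit, 1.70) and at least 1.21-fold higher in LG_eTconv (adjusted p = 0.0233). Npas2, a relative of the circadian factor CLOCK, read 1.86, 1.78 and 1.90 in LG_eTreg and 4.66, 4.45 and 4.02 in LG_eTconv, against 1.01, 2.94 and 1.89 in LG_naive. It was higher in LG_eTconv than in LG_naive by 2.43 (SE 0.42, limma adjusted p = 0.00524) and, with a log2 difference of −2.53, lower in LG_eTreg than in LG_eTconv (adjusted p = 0.00888). Averaged over its probe sets, Npas2 differed by 1.26 and −1.50 in these comparisons. The remaining calls, named after their values were seen, were Arntl, the circadian factor BMAL1, higher by 0.74 in LG_eTreg, and Hif3a, lower by 0.41 on the log2 scale in LG_eTconv.

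Of 5 measured genes of the xenobiotic battery beyond the members, 3 passed the limit on at least 1 gland array. Nqo1, a quinone reductase known as a target of the receptor and of NRF2, was above the limit on 2 of 9 gland arrays and differed from LG_naive by −0.14 in LG_eTreg (limma adjusted p = 0.808) and −0.44 in LG_eTconv (0.285). Ugt1a6a, a glucuronosyltransferase named after its values were seen, was above it on 4 of 9 gland arrays and read 5.30 on Spl_CD8 (log2 difference −0.69 in LG_eTreg, adjusted p = 0.305, and −1.27 in LG_eTconv, adjusted p = 0.052). Cyp1a2 and Aldh3a1 were below the limit on all 11 arrays. Nfe2l2, which encodes NRF2, was the 1 called gene of 5, where 11.7% of all genes were called in LG_eTreg and 13.5% in LG_eTconv against LG_naive. It read 3.60, 4.41 and 4.47 in LG_eTreg and 4.74, 5.36 and 5.39 in LG_eTconv, against 6.31, 6.11 and 6.37 in LG_naive. It was lower in LG_eTreg (log2 difference −2.10, SE 0.26, limma adjusted p = 0.00106) and in LG_eTconv (−1.10, adjusted p = 0.0258). The call in LG_eTconv ended without LG_eTconv 1 (0.0797), LG_naive 1 (0.0689), LG_naive 2 (0.0521) or LG_naive 3 (0.085).

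Of 8 measured genes of the list for ligand formation and uptake, 3 were lower in each effector subset than in LG_naive. Of all genes 5.47% were lower in LG_eTreg and 7.02% in LG_eTconv. Kmo and Kynu encode enzymes that act on kynurenine and do not form it. Kmo, kynurenine 3-monooxygenase, read 1.95, 2.35 and 2.53 in LG_eTreg and 2.31, 3.05 and 2.35 in LG_eTconv, against 4.98, 5.31 and 5.77 in LG_naive (log2 differences −3.08 and −2.79, limma adjusted p = 0.00015 and 0.00022). Kynu, kynureninase, was below the limit on all effector arrays and above it on all 3 LG_naive arrays, at least 2.21-fold lower in LG_eTreg and at least 2.04-fold lower in LG_eTconv (limma adjusted p = 0.000157 and 0.000468, or 0.163 and 0.15 after raising all values to the highest limit). Over the mean of its probe sets it differed by −1.53 in LG_eTreg and −1.03 in LG_eTconv (adjusted p = 0.0125 and 0.0612). Slc7a5, a chain of the transporter that carries kynurenine and tryptophan into T cells, was lower by 0.87 in LG_eTreg and by 0.99 in LG_eTconv on the log2 scale (limma adjusted p = 0.00621 and 0.00274). Its partner chain Slc3a2, named after its value was seen, was the 1 gene of 8 that was higher, by 0.72 in LG_eTreg (adjusted p = 0.0112). Ido1 was below the limit on all gland arrays.

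Epas1, Nfe2l2, Kmo and Kynu fell together with markers of other cells. The summed linear signal of 9 monocyte and macrophage markers was 116 to 126 in LG_eTreg and 105 to 135 in LG_eTconv, against 445 to 650.0 in LG_naive, with Csf1r and Itgam below the limit on all gland arrays. That of 6 dendritic cell markers was 67.0 to 91.5 and 67.6 to 75.4, against 208 to 235, with Xcr1 below the limit on all gland arrays. Of these, H2-Aa averaged 5.19 and 5.26, against 7.44 in LG_naive, while Zbtb46 went the other way (4.81 and 4.43, against 3.55) and Batf3 overlapped between the groups. The sum of 8 fibroblast and endothelium markers was 15.3 to 16.8 and 24.3 to 27.1, against 63.4 to 67.7, with Col1a2 and Pdgfra below the limit. Of the 8, between 1 and 6 were above the limit on the LG_naive arrays. On LG_naive 1 that was Pecam1 alone, with 5.67. Pecam1 averaged 2.14 in LG_eTreg, 3.77 in LG_eTconv and 5.15 in LG_naive, and read 4.90 on Spl_CD4. The part of these other cells in these 4 results, and in the Ahr and Tiparp levels of LG_naive, was not tested. The sum of 7 gland epithelium markers was 126 to 190.0 in LG_eTreg and 61.6 to 64.3 in LG_eTconv. It was 173 to 407 in LG_naive, with Elf3 below the limit on all gland arrays. Epcam averaged 6.37 in LG_eTreg and 3.32 in LG_eTconv, without overlap, and 5.66 in LG_naive, which overlapped with LG_eTreg. Krt18 averaged 4.89 in LG_eTreg and 3.47 in LG_eTconv, also without overlap, and was highest in LG_naive. The other markers of this list overlapped between LG_eTreg and LG_eTconv. Arnt2 was below background in LG_naive, and the part of epithelial cells in its result was not tested. Of 4 B cell markers the sum was 12.0 to 16.9 in LG_eTreg, 26.9 to 33.9 in LG_eTconv and 31.7 to 41.7 in LG_naive. It was 274 in Spl_CD4 and 441 in Spl_CD8. The monocyte and macrophage sum was 374 in Spl_CD4 and 412 in Spl_CD8, and the dendritic cell sum 237 and 330. The part of B cells and of these other cells in the comparisons with the spleen was not tested. The sum of 5 CD8 T and natural killer cell markers was 43.2 to 48.4 in LG_eTreg and 80.9 to 123 in LG_eTconv, against 38.8 to 56.2 in LG_naive. Cd8a averaged 5.17 in LG_eTreg and 6.48 in LG_eTconv, against 4.92 in LG_naive, while Cd8b1 overlapped between the groups and Eomes was lower in both effector subsets (1.80 and 1.50, against 3.29).

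Of 8 measured T cell genes known in connection with the receptor, 6 were higher and none lower in LG_eTreg than in LG_naive (median 2.57), where 6.2% of all genes were higher, and 4 were higher and none lower in LG_eTconv (median 1.02), where 6.45% were. Several were listed with their results on these arrays known, so the counts are no independent evidence, and 1 of the 6, Il17a, named after its value was seen, was below the limit on all arrays. Il10, whose transcription the receptor can promote in T cells, exceeded LG_naive by 7.49 in LG_eTreg and 3.76 in LG_eTconv, and Il21 by 4.50 and 7.40. In LG_naive, Il10 was above the limit on 2 of 3 arrays and Il21 on 1 of 3, and with all values raised to the highest limit these differences were 7.28 and 3.55 for Il10 and 3.92 and 6.82 for Il21. Averaged over its probe sets, Il21 differed by 2.50 in LG_eTreg. Maf, a factor known to act with the receptor at Il10 and Il21, was higher by 3.66 in LG_eTreg and 3.30 in LG_eTconv (limma adjusted p = 4.70e-05 and 6.37e-05). Ikzf3, the Ikaros relative Aiolos, read 4.94, 4.51 and 4.22 in LG_eTreg and 2.48, 2.14 and 1.87 in LG_eTconv, against 1.94, 1.67 and 1.93 in LG_naive. It was higher in LG_eTreg than in LG_eTconv by 2.39 (SE 0.21, limma adjusted p = 0.00032), and LG_eTconv overlapped with LG_naive.

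**Figure D3:**
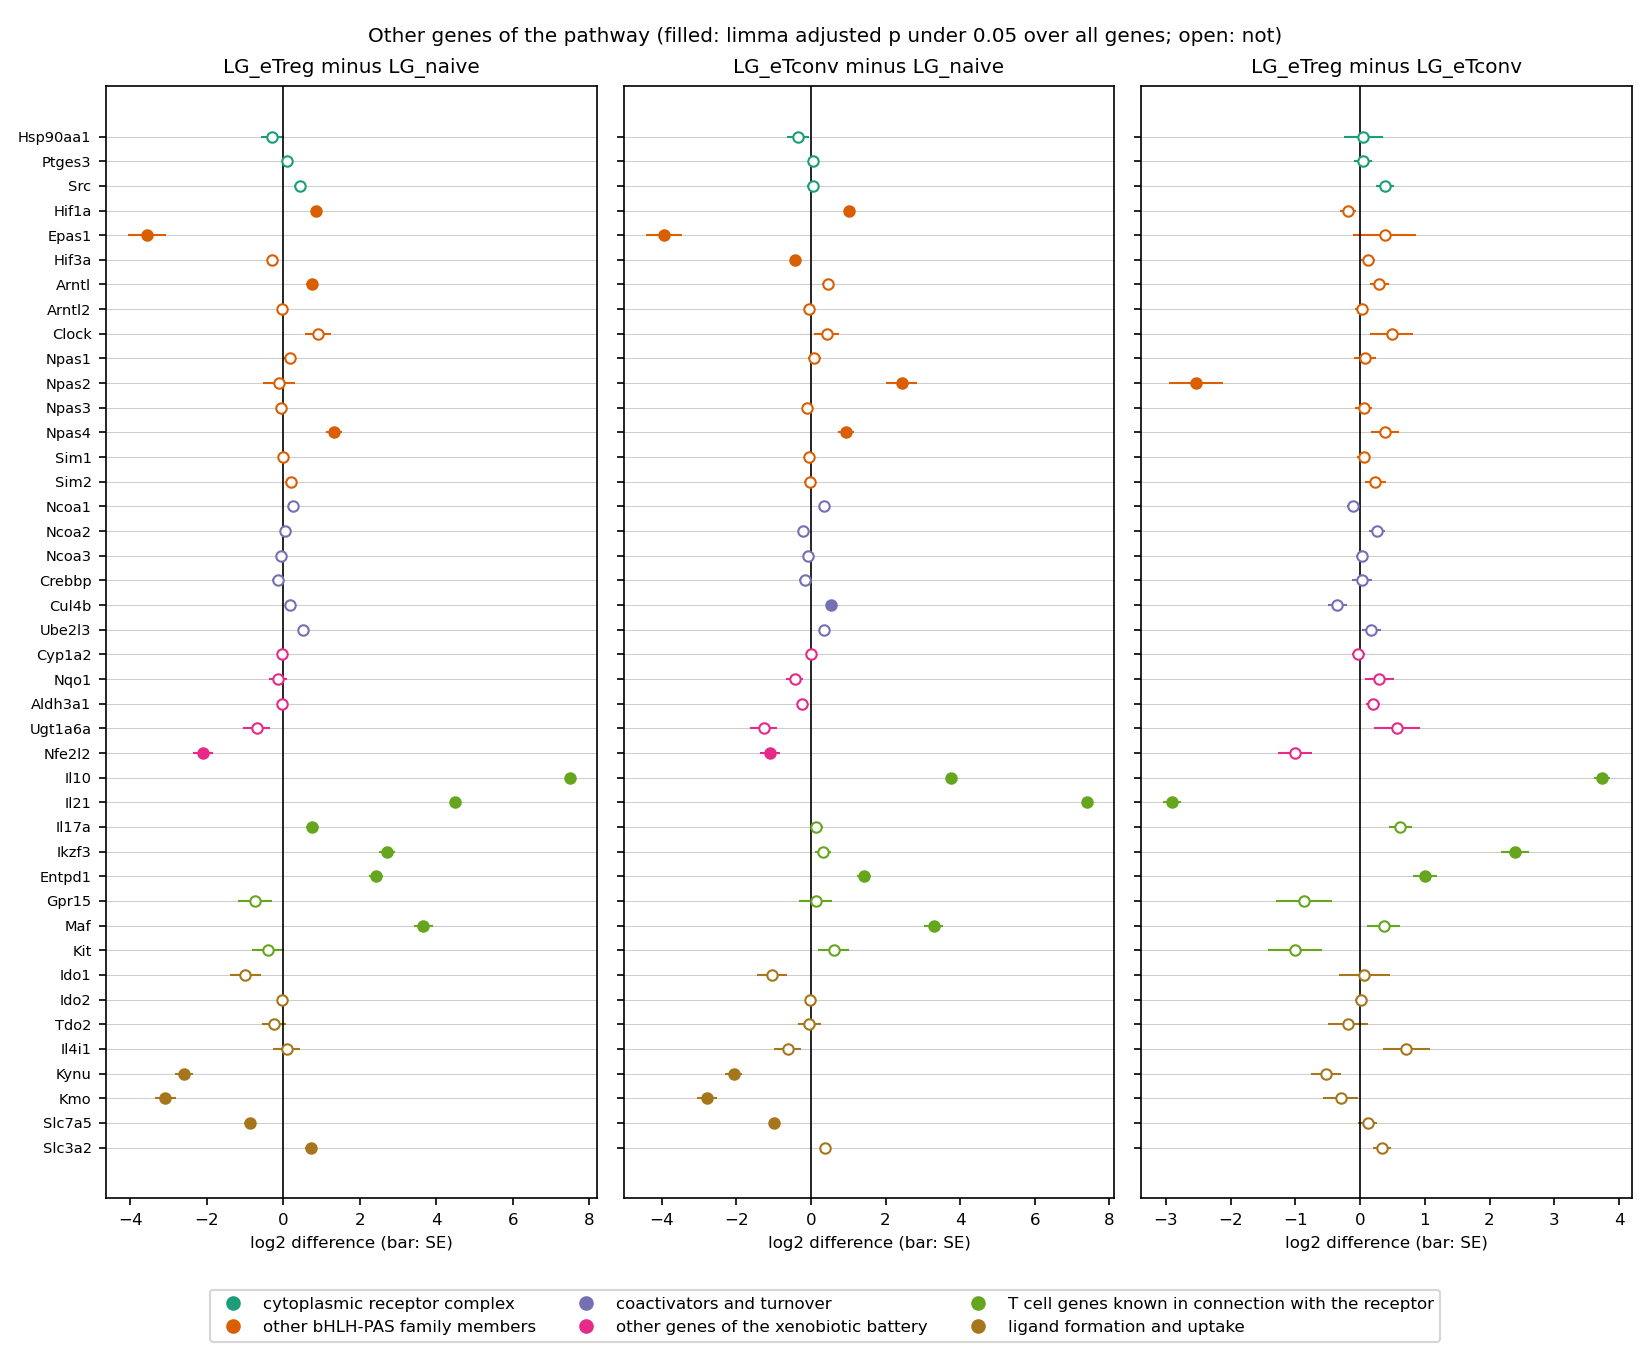
Log2 difference (horizontal axis, bar: SE) of 42 other pathway genes in the 3 gland comparisons, coloured by list. Filled points passed limma's adjusted p under 0.05 over all 17097 genes: Hif1a and Epas1 lie on opposite sides of 0 in both comparisons with LG_naive, and Il10 and Il21 on opposite sides between LG_eTreg and LG_eTconv.

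Genes with a pattern like that of Ahr or Arnt2 were ranked by Pearson's r over the 9 gland arrays, among 2307 genes that were above background on all 3 arrays of a gland group and spanned at least 1 between group means. This r is a measure of likeness and reflects mainly the 3 group levels. Likeness over the gland arrays, down to single arrays, follows from the ranking. Closest to Ahr were Dgkh, a diacylglycerol kinase (0.997), Lxn, the carboxypeptidase inhibitor latexin (0.996), Gem, a small GTP-binding protein (0.991), Mmd (0.991), and Prkra, an activator of the kinase PKR (0.988). Among the gland arrays all 5 were lowest on LG_naive 1, as was Ahr: Lxn, for instance, read 2.90, 4.22 and 4.24 in LG_naive, against 5.83 to 6.49 on the effector arrays. In the spleen, whose arrays had no part in the ranking, they parted, with Gem at 0.20 in Spl_CD4 and Mmd at 8.11 in Spl_CD8.

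Closest to Arnt2 were Ikzf3 (0.994), Itgae, which encodes the integrin CD103 (0.987), Myo1f, an unconventional myosin (0.985), N4bp1 (0.985) and Rnase4, a secreted ribonuclease (0.984). Itgae averaged 7.70 ± 0.10 in LG_eTreg and 3.49 ± 0.52 in LG_eTconv, against 2.31 ± 0.39 in LG_naive (SD, n = 3 each). On Spl_CD8, where Arnt2 was below background, Itgae read 5.21 and Myo1f 5.52, while Rnase4 read 1.10, against 4.32 on Spl_CD4.

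**Figure D4:**
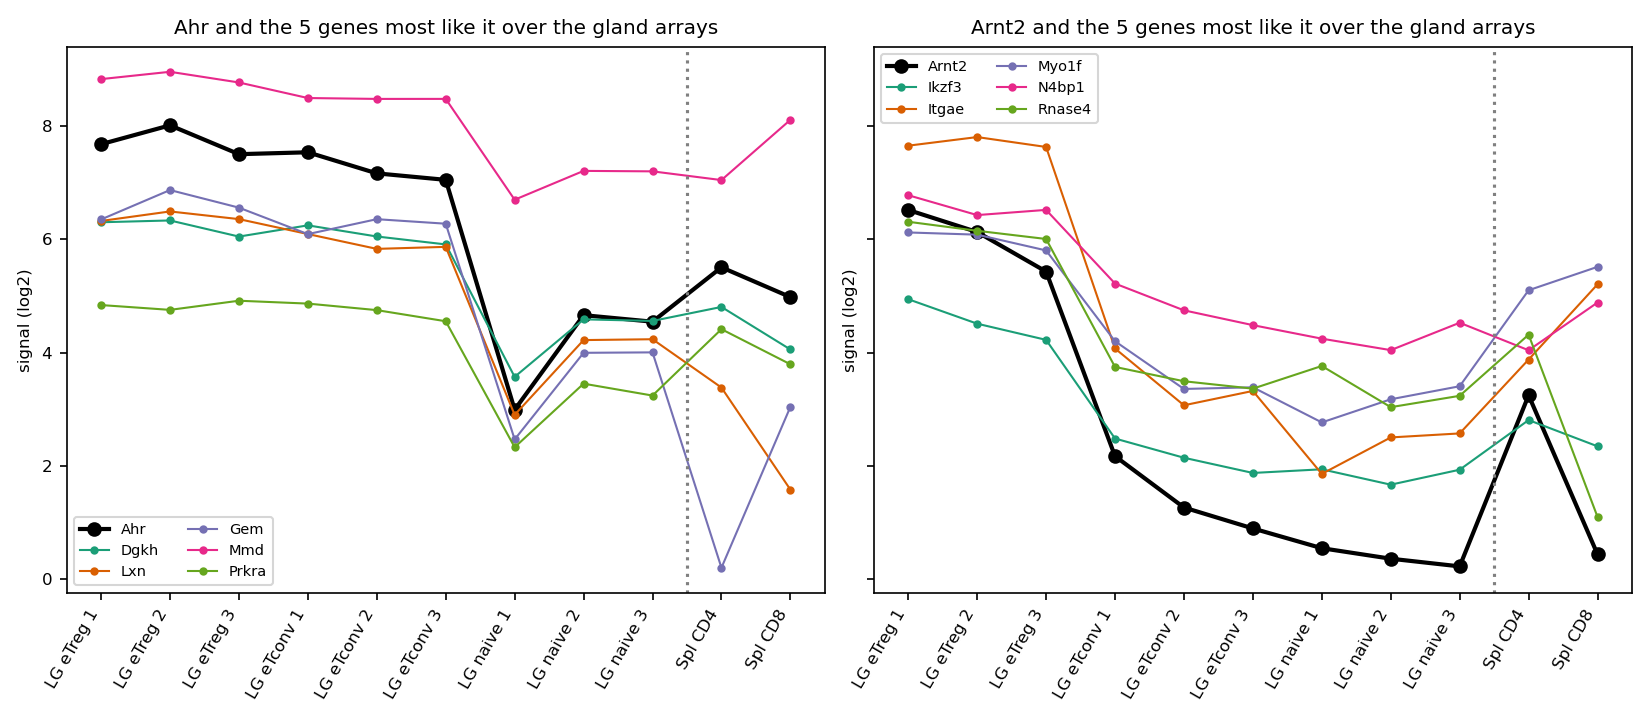
Signal (log2, vertical axis) on the 11 arrays of Ahr (left, black) and Arnt2 (right, black) with the 5 genes of highest Pearson's r over the 9 gland arrays. Lines join arrays for reading only, and a dotted line sets off the spleen arrays. The genes run together in the gland, as they were chosen to, and the spleen arrays had no part in the choice. Gem, for instance, reads 0.20 on Spl_CD4.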

How the data were processed

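RNA of 11 samples was amplified with NuGEN Ovation, labelled with biotin and hybridised to perfect-match probe set arrays, per the labels. The deposited values are log2 signals, made by the authors; the submitters' processing notes name Partek and RMA (versions not given in the sources used here), with base 2 inferred from the values. Of 45141 probe sets 104 were controls. Of the other 45037, 28898 had 1 gene symbol, 551 several and 15588 none listed. Each of 17097 genes was represented by its probe set of greatest mean in the 9 gland arrays, with no filter on dim genes. limma 3.58.1 in R 4.3.3 fitted a mean per group over the 9 gland arrays (6 residual degrees of freedom), with Benjamini-Hochberg adjustment over all genes and two-sided tests. The small number of arrays limits the precision. Replicate numbers were not used as pairs: deviations from group means correlated between −0.11 and 0.30 in same-numbered arrays.

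Members, lists, tests and alternatives were chosen with earlier results of these data known. Named genes were all members, up to 3 called genes with the largest change per list and comparison, some fixed genes (Hif1a, Nqo1, Il10 and Slc7a5 among them) and the 5 genes most like Ahr and Arnt2. Of the 49 list genes, 7 are not reported here. Bounds written as at least N-fold set each dim array at the higher of its value and its background limit. Spleen comparisons have no test.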

Additional observations from a re-analysis of the deposited data

How the results depend on the processing

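Each gland result was recomputed in 17 other ways, of which 1, leaving out LG_eTreg 3, LG_eTconv 1 and LG_naive 1 at once, was chosen after seeing the data. Ahrr, Cyp1a1 and Cyp1b1 dropped out of the fit without dim genes, those above the limit on no gland array. No difference past the threshold, of a member or of a named pathway gene, changed direction. Nqo1, which was not called, ran from −0.38 to 0.03 in LG_eTreg against LG_naive with 1 array left out. Testing all probe sets one by one called 3424 probe sets for LG_eTreg against LG_naive, 4103 for LG_eTconv against LG_naive and 1557 for LG_eTreg against LG_eTconv, where 1995, 2303 and 974 genes were called, since more features were tested. With 1 array left out, and in the same order of comparisons, the counts of genes ran from 1512 to 1845, 1770 to 2414 and 683 to 969, those of members from 2 to 2, 1 to 2 and 1 to 2, and those of the other pathway genes from 14 to 15, 10 to 15 and 4 to 5. The Ahr differences then ran from 3.13 to 3.97, 2.65 to 3.49 and 0.34 to 0.63, and those of Arnt2 from 5.41 to 5.95, 0.70 to 1.34 and 4.31 to 4.95; those of Arnt2 against LG_naive are differences of measured signals from a group below background, not folds. With the mean of its probe sets Ahr differed by 2.30 in LG_eTreg and 1.94 in LG_eTconv from LG_naive, and without the 3 arrays together by 2.51 in LG_eTconv. With all values raised to the highest limit, which compresses low values, Arnt2 differed from LG_naive by 4.33 in LG_eTreg and 0.16 in LG_eTconv. Without the 3 arrays it differed by 5.25 between LG_eTreg and LG_eTconv. With the replicate block, whose numbers are not known to pair the samples, 2 members, Ahr and Arnt2, passed the threshold in LG_eTconv against LG_naive, and 1929, 2271 and 906 genes did in the 3 comparisons. Of 510 recomputed values of named pathway genes 487 kept their side of the threshold and 23 lost the call, 12 of them Cul4b and 6 Nfe2l2 in LG_eTconv. Where no other cause is named, the cause was not tested. Signals near background limit what can be said of Ahrr, Cyp1a1, Cyp1b1 and the dim probe set of Ahr.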
